A study of Mus musculus with 16 samples.

Results

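The genes described here are 35 genes of mitosis and the kinetochore, chosen by name from knowledge of the cell cycle. Earlier results of these data were known at that choice. A gene was taken where a probe set of the array carried its symbol alone, which held for 34 of the 35 among 19938 genes tested; Ccnb1 has no such probe set and was dropped. Top2a had 2 such probe sets and was read on the brighter. Expression was measured on 16 Affymetrix whole-transcript arrays hybridised with RNA of cultured mouse embryonic fibroblasts, with 4 plates in each of 4 groups. The control cells are given as wild type and carry a scramble short hairpin RNA. The knockdown cells stably express a hairpin that targets Atf5, which encodes an ATF/CREB family transcription factor. Cells of each kind were kept for 8 h in DMSO, the vehicle, or in MG132 at 1 µM, which blocks the proteasome, and all were harvested at the same time. Each kind of cell is a single line in the labels, which do not say whether it is a clone, so an effect of the hairpin and a difference between the lines cannot be told apart.

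Entry into mitosis is driven by CDK1 bound to cyclin A or B, and CDC25 phosphatases remove the inhibitory phosphates from CDK1. Polo-like and Aurora kinases then build the spindle, kinetochores couple centromeres to microtubules, and the spindle checkpoint holds back the anaphase-promoting complex (APC/C) until every chromosome is attached. The APC/C marks cyclins and other mitotic proteins for the proteasome, the enzyme that MG132 blocks. Many of these genes are transcribed in late G2 through shared promoter elements, so their RNA level follows how many cells of a culture are in that phase as well as the output of each cell. In bulk RNA, fewer cells in a phase and less RNA per cell cannot be told apart.

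The deposited values are log2 probe set intensities, scaled to each other by the authors, with array medians from 7.71 to 7.82. Levels below are log2 intensities and changes are differences of log2 intensity with the standard error of limma, n = 4 arrays per group. A change "passed" where the limma p-value, Benjamini-Hochberg adjusted over all 19938 genes, was below 0.05. The number of arrays limits the precision. The means of the member probe sets lay between 9.38 and 13.21, and bright probe sets can show compressed changes. Atf5 read lower in knockdown than in control cells, by 0.22 ± 0.05 with vehicle and by 0.31 ± 0.05 with MG132 (limma adjusted p = 0.00321 and 0.000148). Fibroblast markers ran from bright to dim in control cells with vehicle, with Fbln2 at 12.67, Col1a1 at 12.40, Dcn at 7.56, Fap at 5.08 and Lum at 4.72. Ptprc, Pecam1 and Epcam, which mark blood, endothelial and epithelial cells, read between 6.19 and 6.93 as group means, but some markers of other cell types were bright, among them the smooth muscle gene Tagln at 12.31 and the epithelial keratin Krt19 at 11.36. These markers were chosen for the text after their values were seen. Arrays also varied within their groups along a gradient with 37.1% of the within-group variance. Genes moved along it in both directions. The median correlation with it was 0.40 over the members, 0.71 over cohesin and condensin genes and -0.65 over endothelial markers. Control vehicle arrays 1 and 4, knockdown vehicle array 1 and control MG132 array 4 lay lowest on the gradient. Counts of members without these 4 arrays are given beside the main counts, except for the line difference with MG132.

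In control cells MG132 moved mitotic genes in both directions. The largest rises were in Cenpf, a large kinetochore protein of late G2, by 0.51 ± 0.05 (a gain of 42.2%), and in Ndc80, the microtubule-binding subunit of the outer kinetochore, by 0.43 ± 0.04 (34.5%). The largest falls were in Spc25, another subunit of the same NDC80 complex, by 0.49 ± 0.06 (a change of -29.0%), and in Anln, the actin-binding scaffold anillin of the cleavage furrow, by 0.37 ± 0.03 (-22.5%). No member changed by 1.5-fold or more with MG132 in either line. Of the 34 members 26 passed (76.5%), where 35.8% of all genes did. The 14 that rose and the 12 that fell were 41.2% and 35.3% of the members, where 16.8% and 19.0% of all genes rose and fell. The 4 MG132 arrays lay wholly above the 4 vehicle arrays in 10 members and wholly below in 13, which held for 15.0% and 17.9% of all genes. With each array centred on its own median the split was 8 up and 13 down, since centring moves the median of all genes from 0.03 to -0.03. Without the 4 arrays named above it was 13 up and 11 down.

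In knockdown cells the same treatment mostly lowered these genes. Spc25 again had the largest fall, by 0.52 ± 0.06 (a change of -30.4%), followed by Kif2c, a microtubule-depolymerising kinesin of the centromere, by 0.38 ± 0.03, Ccnb2, a B-type cyclin, by 0.38 ± 0.03, and Cenpa, the histone H3 variant that marks centromeres, by 0.36 ± 0.03. Of 34 members 22 passed (64.7%), where 40.7% of all genes did: 20 fell, or 58.8%, against 24.3% of all genes, and 2 rose, or 5.9%, against 16.4%. The MG132 arrays lay wholly below the vehicle arrays in 21 members and wholly above in 1, against 23.4% and 15.1% of all genes. The median change of the members was -0.13, where that of all genes was 0.03; in control cells these medians were 0.04 and 0.03. Without the 4 arrays 22 fell and 2 rose. The 2 members that rose in both lines were Incenp, the scaffold of the chromosomal passenger complex (0.29 ± 0.04 in control and 0.18 ± 0.04 in knockdown cells), and Cenpf (0.14 ± 0.05 in knockdown cells). The Cenpf rise in knockdown cells was lost without knockdown vehicle array 1 or 3 or knockdown MG132 array 4, with median centring, with the 2 groups alone and without the 4 arrays (limma adjusted p 0.0507 to 0.263).

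**Figure D1:**
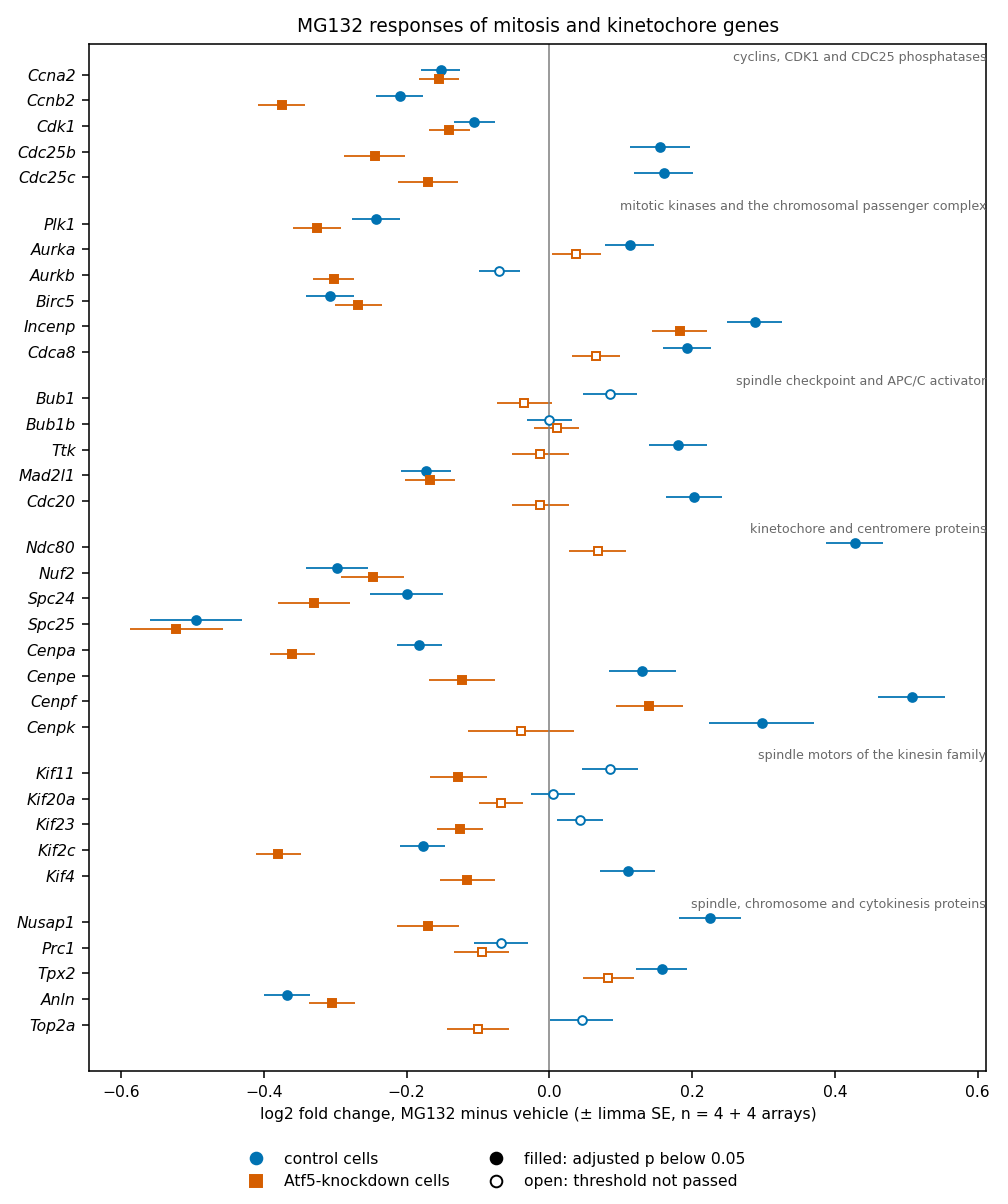
Log2 fold change of each of the 34 genes with MG132 against vehicle (x axis), by role (y axis), in control cells (blue circles) and Atf5-knockdown cells (orange squares), with the limma standard error; filled symbols passed the threshold. Most orange squares lie left of the blue circle of the same gene, and Spc25 lies farthest left in both lines (-0.49 and -0.52).

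Promoter sequence was available for 27 of the members in RefSeq windows of build GRCm38.p6, which run from 250 bases before to 50 bases after a start; 30 such windows belonged to them. Aurkb, Ccna2, Cdc25c, Incenp, Kif20a, Spc24 and Tpx2 have none here. Each window was searched on both strands for CCAAT, the letters bound by NF-Y, for TTTGAA and TTCGAA, forms of the cell cycle homology region of late cell cycle promoters, and for GGCGGGA, an E2F-like element. CCAAT can share no more than 2 letters with any of the others. CCAAT was in 23 of 30 member windows (76.7%) and in 37.4% of all 32851 windows, and 43.3% of member windows against 11.7% of all held it more than once. TTTGAA was in 20 (66.7%, against 17.9%) and TTCGAA in 4 (13.3%, against 1.6%), so that 73.3% of member windows held a form of the homology region, against 19.2% of all. GGCGGGA was in 10 (33.3%, against 11.3%). These are matches of letters, and binding was not measured.

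The 150 bases before the start are shown for 4 members that responded differently: Ccnb2 and Cenpa, which fell in both lines, Cdc25b, which rose in control and fell in knockdown cells, and Cenpf, which rose in control cells. Capitals mark CCAAT and the E2F-like GGCGGGA on either strand, so that a match on the other strand appears as its reverse complement. Each has a homology region form just after the start and so outside the bases shown: TTTGAA beginning at base 5 in Ccnb2, 17 in Cenpa and 3 in Cenpf, and TTCGAA at base 8 in Cdc25b.
Ccnb2, chr9:70421555-70421704, minus strand: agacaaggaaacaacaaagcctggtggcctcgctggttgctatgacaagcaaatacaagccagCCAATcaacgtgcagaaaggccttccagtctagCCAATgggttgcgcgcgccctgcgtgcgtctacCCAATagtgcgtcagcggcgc
Cenpa, chr5:30666736-30666885, plus strand: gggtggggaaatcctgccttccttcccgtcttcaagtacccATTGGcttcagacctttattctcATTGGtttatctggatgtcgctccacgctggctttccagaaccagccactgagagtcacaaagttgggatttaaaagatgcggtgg
Cdc25b, chr2:131186798-131186947, plus strand: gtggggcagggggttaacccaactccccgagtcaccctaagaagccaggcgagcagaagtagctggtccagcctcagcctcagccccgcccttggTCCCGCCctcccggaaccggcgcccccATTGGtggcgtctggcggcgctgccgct
Cenpf, chr1:189688087-189688236, minus strand: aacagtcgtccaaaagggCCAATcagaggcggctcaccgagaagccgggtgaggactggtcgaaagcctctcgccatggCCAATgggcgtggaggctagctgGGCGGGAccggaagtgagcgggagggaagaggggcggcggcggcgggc

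Ccnb2 holds CCAAT 3 times, beginning at bases -87, -54 and -21 from the start, and Cenpa holds it at -109 and -86 in the other orientation. Cenpf has it at -132 and -71 with GGCGGGA at -48, and Cdc25b has 1 of each, both in the other orientation. The genes of these windows responded to MG132 in different directions. The windows shown all hold CCAAT, which not every member does. Among other members with array values below, Nusap1 and Mad2l1 had no match to any of the motifs, and Anln, Ndc80 and Kif2c had no CCAAT.

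All 12 members that fell in control cells also fell in knockdown cells. They came from every role: the cyclins Ccna2 and Ccnb2 with Cdk1; Plk1 and Birc5; Mad2l1; Nuf2, Spc24, Spc25 and Cenpa; Kif2c; and Anln. Ccna2, cyclin A2, fell by 0.15 ± 0.03 in each line. Cdk1 fell by 0.10 ± 0.03 in control and 0.14 ± 0.03 in knockdown cells. Plk1, polo-like kinase, fell by 0.24 ± 0.03 and 0.33 ± 0.03. Birc5, survivin of the passenger complex, fell by 0.31 ± 0.03 and 0.27 ± 0.03. In the NDC80 complex the 4 subunits did not move together: Nuf2 fell by 0.30 ± 0.04 and 0.25 ± 0.04, and Spc24 by 0.20 ± 0.05 and 0.33 ± 0.05, while Ndc80 rose in control cells and read 0.07 ± 0.04 higher, not past the threshold, in knockdown cells. The fall of Spc24 in control cells was -0.13 without the 4 arrays (limma adjusted p = 0.16). Of all genes 19.0% fell in control and 24.3% in knockdown cells, and how many fell in both was not counted.

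Ccnb2 shows the shared fall array by array. In control cells it read 12.98, 13.06, 13.06 and 13.09 with vehicle and 12.87, 12.87, 12.80 and 12.81 with MG132. The knockdown arrays read 13.15, 13.21, 13.18 and 13.23 with vehicle and 12.82, 12.82, 12.83 and 12.80 with MG132. The MG132 arrays lay below the vehicle arrays without overlap in each line, and the knockdown vehicle arrays lay above all others. Its fall was 0.21 ± 0.03 in control cells and 0.38 ± 0.03 in knockdown cells (limma adjusted p = 5.74e-05 and 7.47e-08).

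Cenpa also fell in each line. Its arrays read 12.13, 12.09, 12.13 and 12.11 in control cells with vehicle and 11.94, 11.98, 11.87 and 11.94 with MG132. In knockdown cells they read 12.40, 12.43, 12.46 and 12.44 with vehicle and 12.09, 12.11, 12.05 and 12.04 with MG132. No group overlapped the group it was compared with in either treatment or line. The knockdown MG132 arrays overlapped the control vehicle arrays. Kif2c read 11.81, 11.78, 11.81 and 11.81 in control cells with vehicle, against 11.67, 11.63, 11.64 and 11.56 with MG132. The knockdown arrays went from 12.00, 11.97, 12.00 and 12.06 to 11.61, 11.62, 11.65 and 11.63. Its MG132 arrays overlapped between the lines and its vehicle arrays did not.

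Mad2l1, a checkpoint protein that binds and restrains CDC20, fell by a like amount in each line. It read 12.64, 12.75, 12.76 and 12.70 in control cells with vehicle and 12.57, 12.57, 12.56 and 12.46 with MG132. Its knockdown arrays read 12.74, 12.75, 12.72 and 12.72 with vehicle and 12.59, 12.57, 12.54 and 12.56 with MG132. The lines overlapped in each treatment, and the difference of the falls was 0.01 ± 0.05. Plk1 read 12.52, 12.47, 12.46 and 12.51 in control cells with vehicle and 12.25, 12.29, 12.18 and 12.27 with MG132. In knockdown cells Plk1 read 12.76, 12.79, 12.81 and 12.82 with vehicle and 12.45, 12.47, 12.53 and 12.43 with MG132. All 4 knockdown arrays lay above the control arrays in each treatment. Anln had that arrangement too, at 12.59, 12.63, 12.66 and 12.60 against 12.22, 12.26, 12.32 and 12.21 in control cells. In knockdown cells Anln went from 12.79, 12.83, 12.86 and 12.86 to 12.53, 12.53, 12.51 and 12.55.

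**Figure D2:**
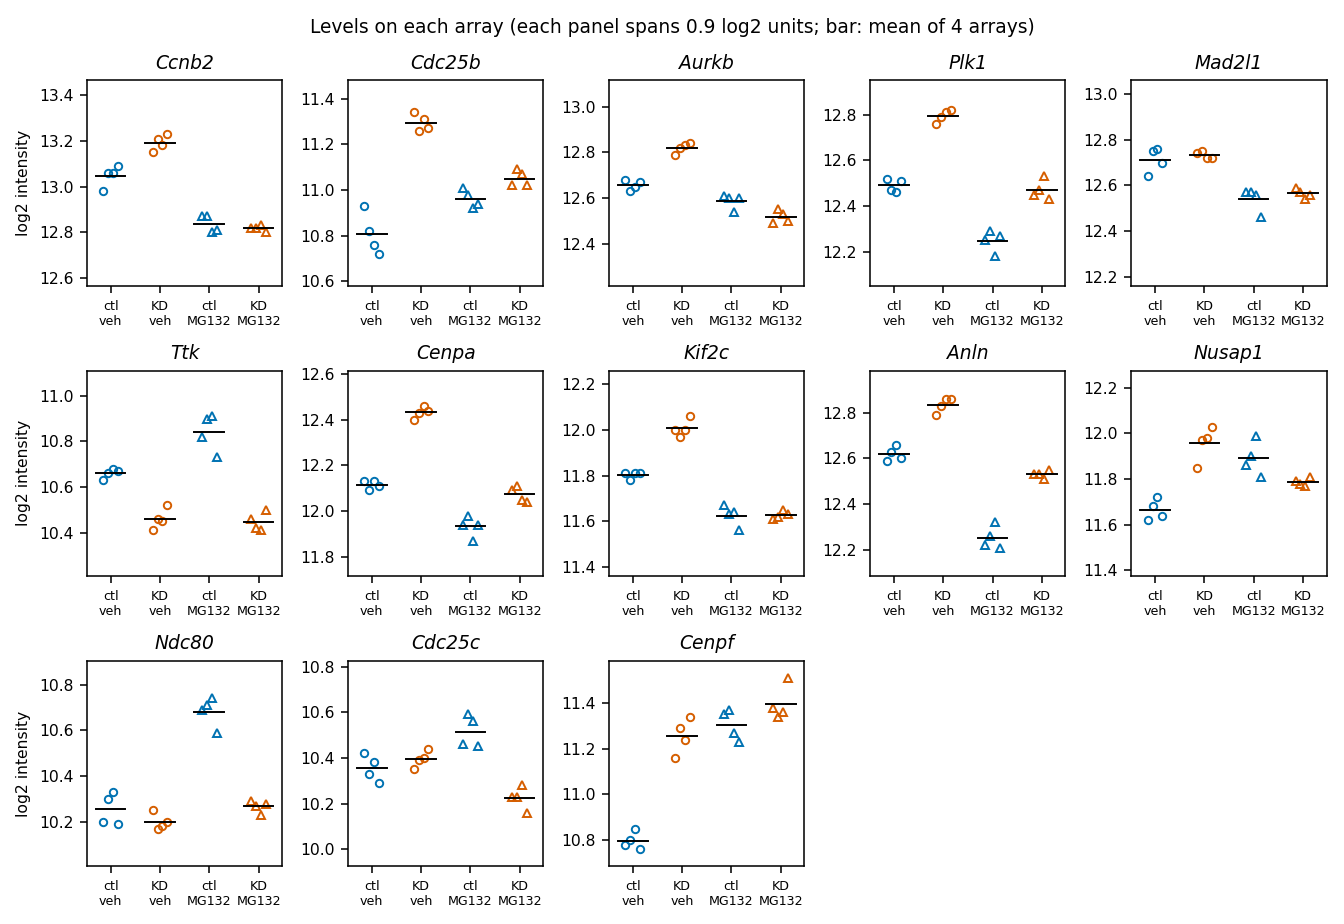
Log2 intensity (y axis, every panel spanning the same range) of 13 genes on each array, with control cells in blue and knockdown cells in orange, vehicle as circles and MG132 as triangles, and a bar at the mean of 4 arrays. For Ndc80 the 4 control MG132 arrays (10.59 to 10.74) lie above all other arrays, and for Cdc25b the knockdown vehicle arrays do (11.26 to 11.34).

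The difference of the MG132 responses between the lines was tested directly as an interaction. The response was lower in knockdown than in control cells for 16 of 34 members and higher for 0 (limma; also 0 at an unadjusted p below 0.05), which is 47.1% of the members, where 14.6% of all genes passed, 10.1% of them in that direction and 4.45% in the other. The difference was below 0 for 29 of the 34, where it was for 10493 of all 19938 genes. Its median was -0.14 over the members and -0.01 over all genes. Without the 4 arrays the count was again 16 lower and none higher. With the replicate block 14 members passed, and leaving out single arrays gave 13 to 16. The smallest p-values were those of Cdc25b, a CDC25 phosphatase (-0.40 ± 0.06, limma adjusted p = 0.000291), Nusap1, a spindle-bundling protein (-0.40 ± 0.06, 0.000418), Ndc80 (-0.36 ± 0.06, 0.000496), Cdc25c (-0.33 ± 0.06, 0.00117), Aurkb (-0.23 ± 0.04, 0.0012) and Cenpf (-0.37 ± 0.07, 0.00141).

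By role, 3 of 5 cyclin, CDK1 and CDC25 genes passed, 1 of 6 kinase and passenger genes and 2 of 5 checkpoint genes. So did 5 of 8 kinetochore genes, 4 of 5 kinesins and 1 of 5 other spindle and cytokinesis genes. All these responses were lower in the knockdown line, as were those of 10.1% of all genes. Whether the roles differ was not tested. Besides those named, Cenpe, the kinetochore kinesin CENP-E, differed by -0.25 ± 0.07, Kif4, a chromosome-bound kinesin, by -0.23 ± 0.05 and Cdc20, the APC/C activator that the checkpoint restrains, by -0.22 ± 0.06. Kif11, the kinesin that pushes spindle poles apart, differed by -0.21 ± 0.06 and Kif2c by -0.20 ± 0.04. Cenpa differed by -0.18 ± 0.04, and Kif23, a central spindle kinesin, by -0.17 ± 0.05. Cenpk, of the inner kinetochore (-0.34 ± 0.10), Ttk, the checkpoint kinase MPS1 (-0.19 ± 0.06), and Ccnb2 (-0.17 ± 0.05) passed in the main fit. Leaving out any 1 of 11 arrays ended the Ttk call and any 1 of 10 that of Cenpk. The Ccnb2 call was lost without knockdown vehicle array 4 or control MG132 array 1. Median centring also ended the Ttk and Ccnb2 calls (limma adjusted p 0.0503 to 0.0831 over all settings that lost Ttk, Cenpk or Ccnb2). The Kif23 call was lost with median centring alone (limma adjusted p = 0.0524).

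**Figure D3:**
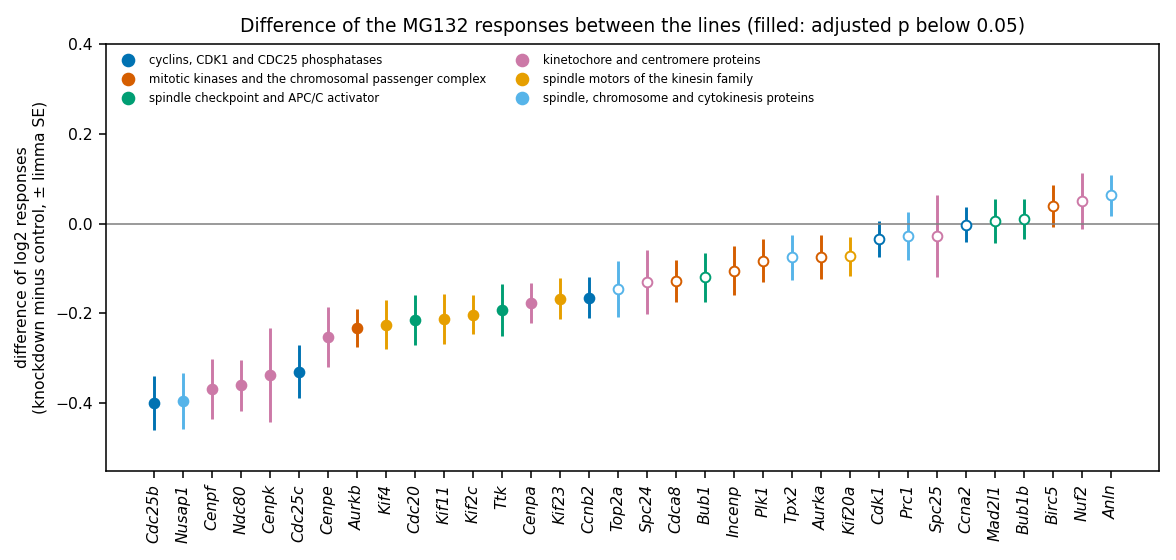
Difference of the MG132 responses, knockdown minus control, on the log2 scale (y axis) with the limma standard error, for the 34 genes in order of size (x axis), coloured by role; filled points passed the threshold. The 16 filled points lie between -0.40 and -0.17, and the highest open point, Anln, is at 0.06.

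For 5 members the response passed in opposite directions, up in control and down in knockdown cells: Cdc25b, Cdc25c, Cenpe, Kif4 and Nusap1. Of all genes 16.8% rose in control and 24.3% fell in knockdown cells. How many of all genes did both, or had the patterns described next, was not counted. Cdc25b read 10.93, 10.82, 10.76 and 10.72 in control cells with vehicle and 11.01, 10.98, 10.92 and 10.94 with MG132. The knockdown arrays read 11.34, 11.26, 11.31 and 11.27 with vehicle and 11.02, 11.09, 11.07 and 11.02 with MG132. The control arrays of vehicle and MG132 overlapped, and the knockdown arrays did not. Nusap1 rose from 11.62, 11.68, 11.72 and 11.64 to 11.86, 11.90, 11.99 and 11.81 in control cells. In knockdown cells it fell from 11.85, 11.97, 11.98 and 12.03 to 11.79, 11.78, 11.77 and 11.81. Neither pair of groups overlapped. Cdc25c read 10.42, 10.33, 10.38 and 10.29 in control cells with vehicle and 10.46, 10.59, 10.56 and 10.45 with MG132. Its knockdown arrays read 10.35, 10.39, 10.40 and 10.44 with vehicle and 10.23, 10.23, 10.28 and 10.16 with MG132. With median centring the rises in control cells of Cdc25b (0.10, limma adjusted p = 0.0881), Cdc25c (0.11, 0.122), Cenpe (0.08, 0.308) and Kif4 (0.06, 0.407) no longer passed, and that of Nusap1 did. Those of Cenpe and Kif4 were also lost on leaving out any 1 of 5 arrays each, and their falls in knockdown cells on leaving out any 1 of 10 and any 1 of 4.

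A further 7 members rose in control cells and did not pass in knockdown cells: Aurka, the kinase Aurora A, Cdca8, borealin of the passenger complex, Ttk, Cdc20, Ndc80, Cenpk and Tpx2. The difference between the lines passed for 4 of them, Ttk, Cdc20, Ndc80 and Cenpk, and not for Aurka (-0.07 ± 0.05), Cdca8 (-0.13 ± 0.05) or Tpx2, the activator of Aurora A (-0.07 ± 0.05). Ndc80 read 10.20, 10.30, 10.33 and 10.19 in control cells with vehicle and 10.69, 10.71, 10.74 and 10.59 with MG132. In knockdown cells it read 10.25, 10.17, 10.18 and 10.20 with vehicle and 10.29, 10.27, 10.23 and 10.28 with MG132. Only the control MG132 arrays stood apart. Ttk read 10.63, 10.66, 10.68 and 10.67 in control cells with vehicle and 10.82, 10.90, 10.91 and 10.73 with MG132. In knockdown cells Ttk read 10.41, 10.46, 10.45 and 10.52, then 10.46, 10.42, 10.41 and 10.50. In each treatment the lines did not overlap, with the knockdown line lower. Cdc20 rose by 0.20 ± 0.04 in control cells and read 0.01 ± 0.04 lower in knockdown cells, and Cenpk rose by 0.30 ± 0.07 and read 0.04 ± 0.07 lower. With median centring the rises of Aurka and Tpx2 no longer passed (limma adjusted p = 0.328 and 0.0955), and that of Aurka was also lost without control vehicle array 3.

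In 3 members a fall passed in knockdown cells and no change passed in control cells. Aurkb, the kinase of the passenger complex, read 12.68, 12.63, 12.65 and 12.67 in control cells with vehicle and 12.61, 12.60, 12.54 and 12.60 with MG132. In knockdown cells it fell from 12.79, 12.82, 12.83 and 12.84 to 12.49, 12.55, 12.53 and 12.50, a change of -0.30 ± 0.03. The groups did not overlap in either line, and the control change of -0.07 ± 0.03 missed the threshold (limma adjusted p = 0.0761). Kif11 (-0.13 ± 0.04) and Kif23 (-0.12 ± 0.03) were the others, and the difference between the lines passed for all 3. The Kif11 fall was lost without knockdown vehicle array 2 or 4 (limma adjusted p 0.0514 to 0.0556). Cenpf rose in control cells from 10.78, 10.80, 10.85 and 10.76 to 11.35, 11.37, 11.27 and 11.23. Its knockdown arrays were already at 11.16, 11.29, 11.24 and 11.34 with vehicle and read 11.38, 11.34, 11.36 and 11.51 with MG132, so that the 2 knockdown groups shared the value 11.34. The other 5 members, Bub1, Bub1b, Kif20a, Prc1 and Top2a, passed in neither line (changes from -0.10 to 0.09).

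Without MG132 the knockdown line held more of many of the member transcripts. Cenpk was higher by 0.51 ± 0.07, Cdc25b by 0.49 ± 0.04, Cenpf by 0.46 ± 0.05, Spc25 by 0.36 ± 0.06, Cenpa by 0.32 ± 0.03 and Plk1 by 0.30 ± 0.03. Of 34 members 18 passed (52.9%), where 39.4% of all genes did: 14 were higher, or 41.2%, against 21.5%, and 4 were lower, or 11.8%, against 17.9%. The lines did not overlap in 15 members with the knockdown higher and in 4 with it lower, against 21.4% and 17.3% of all genes. The median difference was 0.08 over the members and -0.01 over all genes. The others that were higher were Nusap1 (0.29 ± 0.04), Anln (0.21 ± 0.03), Kif2c (0.20 ± 0.03), Kif11 (0.20 ± 0.04), Aurkb (0.16 ± 0.03), Prc1, which bundles microtubules between the poles (0.15 ± 0.04), Ccnb2 (0.15 ± 0.03) and Ccna2 (0.14 ± 0.03). The 4 lower members were Spc24 (-0.24 ± 0.05), Ttk (-0.20 ± 0.04), Kif20a, a kinesin of cytokinesis (-0.17 ± 0.03), and Bub1, a checkpoint kinase (-0.16 ± 0.04). Without the 4 arrays 14 were higher and 4 lower, though Spc24 then missed the threshold (-0.18, limma adjusted p = 0.0518) and Ndc80 passed (-0.13, 0.0137).

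With MG132 the balance between the lines was the other way. Of 34 members 18 passed (52.9%), where 38.1% of all genes did. The knockdown line was lower in 11 members, or 32.4%, against 20.3% of all genes, and higher in 7, or 20.6%, against 17.7%, with a median difference of -0.02 over the members and 0.00 over all genes. The lines did not overlap in 7 members with the knockdown higher and in 10 with it lower, against 16.6% and 18.1% of all genes. Ndc80 (-0.42 ± 0.04), Ttk (-0.39 ± 0.04), Spc24 (-0.37 ± 0.05), Cdc25c (-0.29 ± 0.04), Bub1 (-0.28 ± 0.04) and Kif20a (-0.24 ± 0.03) were the lowest, with Top2a, topoisomerase II alpha, at -0.23 ± 0.04. Cdc20 (-0.17 ± 0.04), Cenpe (-0.17 ± 0.05), Kif23 (-0.13 ± 0.03) and Kif4 (-0.13 ± 0.04) were lower as well, though Kif4 missed the threshold with median centring and with the 2 groups alone (limma adjusted p 0.0529 to 0.0602). Of the 14 members that were higher with vehicle, 6 were also higher with MG132: Ccna2 (0.13 ± 0.03), Plk1 (0.22 ± 0.03), Spc25 (0.34 ± 0.06), Cenpa (0.14 ± 0.03), Prc1 (0.12 ± 0.04) and Anln (0.28 ± 0.03). The other higher member was Bub1b, the checkpoint kinase BUBR1 (0.09 ± 0.03), a call lost on leaving out any 1 of 10 arrays (limma adjusted p 0.0512 to 0.139 over all settings that lost it). The Prc1 call was lost without control MG132 array 4 or knockdown MG132 array 3 and without the 4 arrays, and the Top2a call when its 2 probe sets were averaged (limma adjusted p = 0.102). The dimmer Top2a probe set, with a mean of 6.96, passed in no comparison. All 4 members lower with vehicle were also lower with MG132. How many of all genes passed in the same direction in both line comparisons was not counted. Cdk1, Aurka, Birc5, Incenp, Cdca8, Mad2l1, Nuf2 and Tpx2 passed in neither line comparison.

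**Figure D4:**
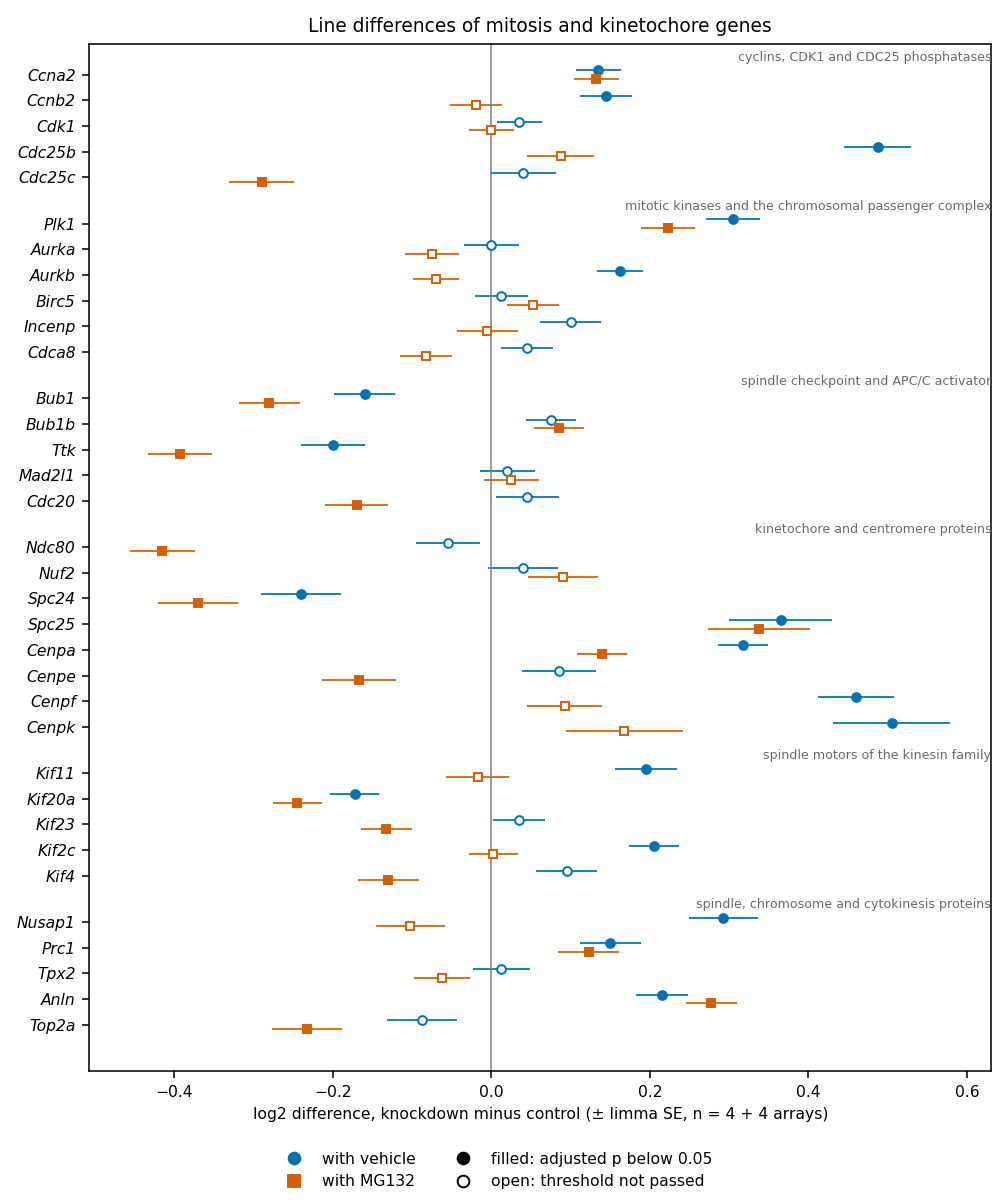
Log2 difference of each of the 34 genes between the lines, knockdown minus control (x axis), by role (y axis), with vehicle (blue circles) and with MG132 (orange squares) and the limma standard error; filled symbols passed the threshold. Filled blue circles lie mostly right of 0 (14 of 18), and 11 of 18 filled orange squares lie left of it.

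Other genes of the pathway were counted from lists of related genes. Of all genes 16.8% rose and 19.0% fell with MG132 in control cells, and 16.4% rose and 24.3% fell in knockdown cells. The response of 10.1% of all genes was lower in the knockdown line and that of 4.45% higher. Of 39 other spindle and cytokinesis genes, 12 rose and 7 fell with MG132 in control cells, and 5 rose and 20 fell in knockdown cells. Nek2, a centrosome kinase, rose by 0.39 ± 0.03 in control cells, and Aspm, a spindle pole protein, fell by 0.47 ± 0.04 in knockdown cells. Their responses were lower in the knockdown line for 12 of 39 and higher for 2, with Psrc1 at -0.58 ± 0.07, Nek2 at -0.32 ± 0.04 and Aspm at -0.36 ± 0.06. Of 31 other kinetochore genes, 16 rose and 7 fell in control cells and 9 rose and 8 fell in knockdown cells. Mis12, of the outer kinetochore, rose in each (0.41 ± 0.04 and 0.46 ± 0.04). The response was lower in the knockdown line for 4 of the 31 and higher for 1, where 10.1% and 4.45% of all genes passed. Of the 31 differences 24 were below 0, with a median of -0.09, where 10493 of all 19938 were below 0. Between the lines with vehicle, 9 of the 31 other kinetochore genes were higher in the knockdown line and 10 lower. Of the 39 other spindle and cytokinesis genes 13 were higher and 10 lower, where 21.5% and 17.9% of all genes were. With MG132 the counts were 5 and 15 of the 31 and 8 and 18 of the 39 (17.7% and 20.3% of all genes). Without MG132 Cenpm, of the inner kinetochore, was 0.74 ± 0.04 higher in the knockdown line and Cenpb, which binds centromeric DNA, 0.66 ± 0.04 lower.

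Genes of the APC/C and its partners fell with MG132 in 11 of 20 and rose in 3 in control cells, and fell in 14 and rose in 1 in knockdown cells. The shares of all genes were 19.0% down and 16.8% up in control cells, and 24.3% and 16.4% in knockdown cells. The subunit Anapc13 fell by 0.42 ± 0.05 in control and 0.51 ± 0.05 in knockdown cells. The E2 enzyme Ube2c fell by 0.28 ± 0.03 and 0.26 ± 0.03, and the separase inhibitor Pttg1 by 0.21 ± 0.04 and 0.39 ± 0.04. Fbxo5, the APC/C inhibitor EMI1, was lower in the knockdown line by 0.36 ± 0.04 with vehicle and by 0.63 ± 0.04 with MG132. Cohesin and condensin genes rose in 9 and fell in 2 of 20 in control cells and rose in 7 and fell in 7 in knockdown cells. Those with the clearest rise were regulators of cohesin: Esco2 (0.84 ± 0.05 and 0.74 ± 0.05), Cdca5, sororin (0.62 ± 0.03 and 0.51 ± 0.03), and Wapl (0.53 ± 0.05 and 0.51 ± 0.05).

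Of 23 regulators of late cell cycle transcription, 6 rose and 8 fell in control cells and 5 rose and 9 fell in knockdown cells. For these and for the brakes below, the shares of all genes were 16.8% up and 19.0% down in control cells. In knockdown cells they were 16.4% and 24.3%. Foxm1, an activator of G2 and mitotic genes, rose by 0.09 ± 0.03 in control cells and fell by 0.10 ± 0.03 in knockdown cells, a difference of -0.18 ± 0.04 (limma adjusted p = 0.00625). Lin54, the subunit of the DREAM and MuvB complexes that binds the homology region, rose by 0.61 ± 0.03 and 0.55 ± 0.03. E2f8, a repressor, fell by 0.67 ± 0.03 and 0.59 ± 0.03, and E2f4, the usual E2F of DREAM, fell by 0.67 ± 0.03 in control cells and by 0.37 ± 0.03 in knockdown cells, a difference of 0.30 ± 0.04. Of 18 measured cell cycle brakes, 4 rose and 3 fell in control cells and 5 rose and 5 fell in knockdown cells. Gadd45a, a stress gene that restrains CDK1, rose far more than any member changed (2.20 ± 0.03 and 2.36 ± 0.03).

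DNA replication genes, which peak earlier in the cycle, were set beside the members. Of 30, 10 rose and 8 fell with MG132 in control cells, while 4 rose and 17 fell in knockdown cells. The shares of all genes were 16.8% up and 19.0% down in control cells, and 16.4% and 24.3% in knockdown cells. Ccne1, cyclin E1, fell by 0.57 ± 0.04 and by 0.90 ± 0.04, and Rrm2, a ribonucleotide reductase subunit, by 0.37 ± 0.03 and 0.45 ± 0.03. The response was lower in the knockdown line for 10 of 30 and higher for 0 (limma; also 0 at an unadjusted p below 0.05). For all genes these shares were 10.1% and 4.45%. With vehicle 23 of 30 were higher in the knockdown line and 3 lower, and with MG132 17 and 3, where for the members the higher count went from 14 to 7. Of all genes 21.5% were higher and 17.9% lower with vehicle, and 17.7% and 20.3% with MG132. Cdt1, a licensing factor, was 0.54 ± 0.04 higher with vehicle. Whether the members and the replication genes differ was not tested.

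**Figure D5:**
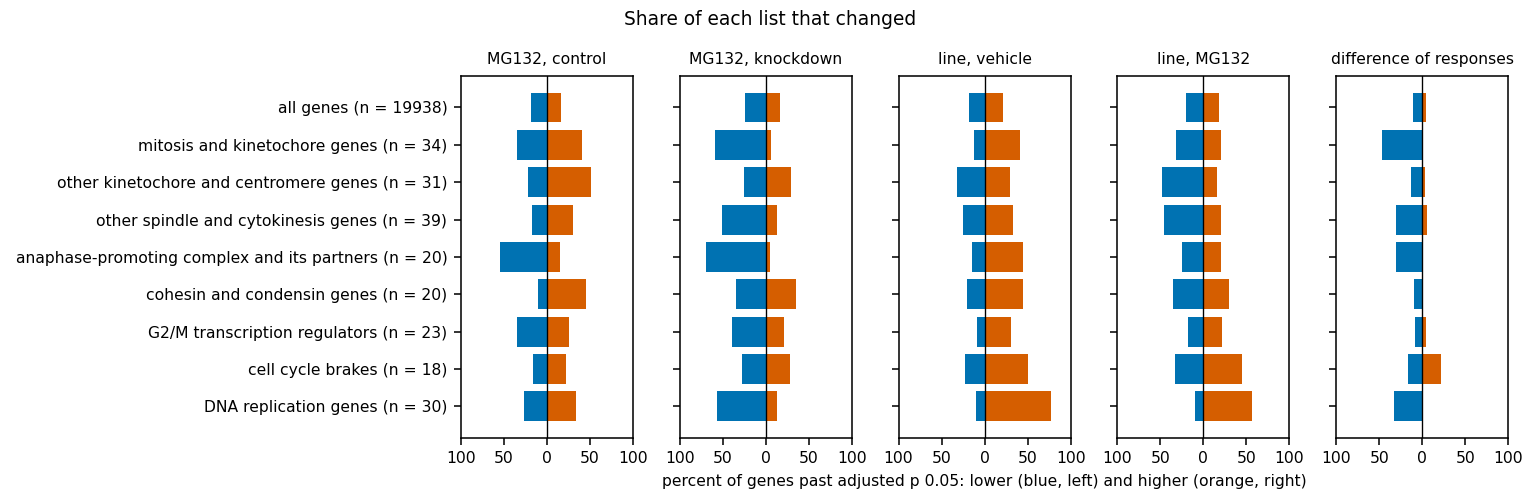
Percent of the genes of each list that passed the threshold (x axis), lower to the left in blue and higher to the right in orange, in the 5 comparisons (panels), for all genes, the mitosis and kinetochore genes and 7 lists of related genes (y axis). In the last panel the mitosis and kinetochore genes reach 47.1% lower with none higher, against 10.1% of all genes.

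The lines also differed in markers of cell types. Of 70 markers of 7 other cell types 6 were higher and 11 lower in the knockdown line with vehicle, where 21.5% and 17.9% of all genes were, and 4 and 13 with MG132, where 17.7% and 20.3% were. Some of these differences were far larger than that of any member. With vehicle the neuronal gene Stmn2 was at -3.06 ± 0.10, Krt19 at -2.44 ± 0.05, Tagln at -2.07 ± 0.06, the adipocyte regulator Pparg at -1.52 ± 0.08 and the neuronal gene Map2 at 1.22 ± 0.06, all named after their values were seen. With MG132 12 of the 70 were higher and 5 lower in control cells (16.8% and 19.0% of all genes), 10 and 4 in knockdown cells (16.4% and 24.3%), and in the difference of the responses 4 and 2 passed. Of the 10 fibroblast markers 3 were higher and 3 lower in the knockdown line with vehicle, with a median difference of -0.04; Thy1 was at 0.86 ± 0.05, Pdgfra at 0.71 ± 0.05, Col1a2 at -0.39 ± 0.05 and Fbln2 at -1.14 ± 0.03. With MG132 4 were higher and 2 lower, with a median of 0.08. In the MG132 response 1 fibroblast marker was higher and 5 lower in control cells, and 3 and 4 in knockdown cells. The part of these differences in those of the members was not tested.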

How the data were processed

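The authors deposited log2 probe set intensities of 16 arrays, given to 2 decimals; the submitters' processing notes list RMA and Partek without version or setting. Titles gave the group and replicate number of each sample. Whether plates were separate cultures is not stated in the labels, so p-values measure only how far these samples scatter, which can be technical. Of 35556 probe sets 21789 carried a single gene symbol in the platform annotation, 1621 several and 12146 none; symbols were checked by gene ID against the RefSeq table of GRCm38.p6, which changed 0. The probe set with the highest mean stood for a gene, giving 19938 genes.

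All arrays were fitted together, with a mean for each group (limma 3.58.1 under R 4.3.3; two-sided; degrees of freedom 12 residual plus 4.12 prior; no filter and no block), with Benjamini-Hochberg adjustment over all genes and a threshold of 0.05. Tested on simulated data with 200 of 19938 genes changed, the fit recovered 52% at 1.25-fold and 92% at 1.5-fold in the difference of the responses. The simulated scatter was independent between genes, and in the data 2903 genes passed this comparison, so recovery in the data may differ. The members, lists, tests and named genes were chosen with earlier results of these data known. Named are all members by role; array values are given, per role, for the member with the smallest p for MG132 in knockdown cells and for the lines with vehicle, and for the 6 smallest p in the difference of the responses; of the related lists, genes among the 3 smallest p of a comparison. Alternatives were a second quantile normalization, median centring, 2 filters on dim genes, every probe set, the mean of probe sets, only the groups compared, a trended robust prior, array weights, the replicate block and leaving out each array; leaving out 4 arrays and the gradient as a covariate were added after seeing the data. Python 3.11.15 and matplotlib 3.10.9 drew the figures.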

Additional observations from a re-analysis of the deposited data

Results flagged for a closer look

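The difference of the MG132 responses between the lines passed the threshold (limma) in 16 members, with values of -0.40 for Cdc25b, -0.40 for Nusap1, -0.37 for Cenpf, -0.36 for Ndc80, -0.34 for Cenpk, -0.33 for Cdc25c, -0.25 for Cenpe, -0.23 for Aurkb, -0.23 for Kif4, -0.22 for Cdc20, -0.21 for Kif11, -0.20 for Kif2c, -0.19 for Ttk, -0.18 for Cenpa, -0.17 for Kif23 and -0.17 for Ccnb2.

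In 6 of 140 groups of 4 arrays (34 members and Atf5 in 4 groups) 1 array lay far from the other 3; chance gives about 1 in 20. Control MG132 array 4 was lowest for Mad2l1 (12.46, the next at 12.56) and for Cenpk (9.23, the next at 9.55), and it is among the 4 arrays left out above. Control vehicle array 1, also among them, was lowest for Cenpk (8.98, the next at 9.22). Control MG132 array 3 was highest for Ccna2 (13.11) and lowest for Aurkb (12.54). Control vehicle array 2 was lowest for Kif2c, at 11.78 against 11.81 on the other 3, a gap near the rounding of the values.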

How the results depend on the processing

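The 5 counts of members that passed stayed within 1.5 times the main count under all 28 alternatives run. Leaving out single arrays gave 24 to 27 for the control response (26 in the main fit), 19 to 23 for the knockdown response (22), 18 to 20 and 16 to 19 for the line differences with vehicle and MG132 (18 and 18), and 13 to 16 for the difference of the responses (16). The other alternatives gave 21 to 29, 21 to 27, 18 to 22, 15 to 22 and 13 to 18. No call of a member turned its direction. Of 100 calls over members and comparisons 80 held under every alternative, among them 12 of 16 differences of the responses (Kif23 was lost with median centring alone, limma adjusted p = 0.0524). Arrays with the same replicate number deviated together in part. Their correlation was above 0.1 in 10 of 24 pairs, with a range of -0.50 to 0.40, and 7 of 16 arrays correlated best with their own number. Between vehicle and MG132 arrays of the control line the correlation was 0.03, 0.34, 0.28 and 0.33 for numbers 1 to 4, and in the knockdown line 0.18, -0.04, 0.16 and 0.17. As some pairs were below 0.1 and the labels state no shared origin, the numbers were not taken to pair the samples. With the replicate block 25, 22, 18, 17 and 14 members passed. Arrays equalised to each other hide a shift of most genes in 1 direction, and centring moved the member medians to -0.01 in control and -0.19 in knockdown cells.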
